A study of Mus musculus with 6 samples.

Results

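The genes described here are 36 genes of cholesterol and fatty acid synthesis, chosen by name from the known pathway and found in a table of 36811 genes by their Ensembl identifiers. All 36 were found, 5 of them genes of SREBP control, 6 of the mevalonate route, 11 of sterol synthesis, 5 of sterol export, transport and storage, and 9 of fatty acid synthesis. RNA sequencing was done on regulatory T cells (Treg) sorted by the EGFP reporter at Foxp3 from the spleen of C57BL/6 mice aged 18 to 21 weeks. The 6 libraries fall into 3 labelled cKO, with the genotype Bach2fl/fl Foxp3EGFP-Cre-ERT2, and 3 labelled WT, with the genotype Bach2+/+ Foxp3EGFP-Cre-ERT2. Both groups thus carry the same inducible Cre, a fusion to the oestrogen receptor that cuts floxed DNA once its ligand is given, under the control of Foxp3. The sources used here state neither the ligand treatment nor which part of Bach2 is deleted. Bach2 is a transcription factor that represses genes of T cell activation, and the groups ask which transcripts change when Treg lack it. Sets of 3 values below follow replicates 1, 2 and 3.

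Cells make cholesterol from acetyl-CoA through the mevalonate route, squalene and a chain of sterol intermediates, and they make fatty acids from the same precursor through malonyl-CoA. The transcription factors SREBP-2 (Srebf2) and SREBP-1 (Srebf1) drive these genes. Scap carries them out of the endoplasmic reticulum for cleavage when sterols are scarce, and the Insig proteins hold them back when sterols are plentiful. Excess sterol activates the LXR receptors, which turn on the exporters Abca1 and Abcg1. Dividing T cells need both products for new membranes, and the mevalonate route also supplies the lipid anchors of small GTPases.

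The level of the targeted gene did not bear out the labels. Bach2 lay between 6.44 and 9.19 FPKM (fragments scaled for transcript length and library size) in the libraries labelled cKO and between 3.29 and 8.25 FPKM in those labelled WT. Its log2 difference was 0.52 with a 95% interval from -0.24 to 1.27 (limma, adjusted p = 0.925), so each direction below rests on the labels alone. The Bach2 difference stayed above 0 in all 15 alternative fits, from 0.26 to 0.81. Foxp3 was present at 5.16 to 9.44 FPKM in the 6 libraries. Of the CD8 T cell markers, Cd8a lay between 0 and 0.531 FPKM and Cd8b1 between 18.8 and 22.4 FPKM. Taking the most common low value as 1 fragment puts the depth between about 3050000 fragments in WT 2 and about 5010000 in cKO 2. Summed levels of 10 cell cycle markers were higher in the libraries labelled cKO, at 245 to 335 FPKM against 188 to 226 FPKM, with all 10 at a higher mean. Those of 6 erythroid markers were also higher, at 252 to 514 against 94.4 to 230 FPKM, with 5 of 6 at a higher mean and 1 at 0 in some library. The sums overlapped for the markers of Treg, B cells, myeloid cells, CD8 and NK cells, and plasma cells. A higher mean in cKO was nonetheless found in 6 of 6 Treg, 5 of 5 B cell and 7 of 9 myeloid markers. It was found in 3 of 6 CD8 and NK and 2 of 4 plasma cell markers. The part of these other transcripts in the values below was not tested, and in bulk libraries fewer cells of a type and less RNA per cell cannot be told apart. The labels do not say that libraries of a group come from separate mice, so a p-value covers only the scatter among these libraries, which may be technical.

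None of the genes of the pathway passed the test between the groups. Of the 36 members, 35 had a mean of at least 1 FPKM and were tested, and 0 of 35 passed a Benjamini-Hochberg adjusted p of 0.05 (limma on log2(FPKM + 1)), against 3 of 11979 genes tested, 0.0250%. The smallest adjusted p of a member was 0.921. The median log2 difference of the members, cKO minus WT, was -0.027, and that of all genes tested was 0.033. There were 23 members below 0 and 12 above. A value below 0 was thus found in 65.7% of members and in 45.0% of all genes tested. With libraries scaled to equal sums the members' median was 0.10, 12 of 35 members were below 0, and the median of all genes moved to 0.18. The members' median thus lay 0.060 under that of all genes without scaling and 0.072 under it with equal sums, while its own sign changed. It was -0.071 after quantile normalization and -0.061 with trimmed-mean scaling.

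Most members had a fitted interval of limited width. These intervals cover only the scatter among these libraries, which may be technical, under the deposited scaling. For 30 of the 35 members (85.7%) the 95% interval lay wholly within a 2-fold change of FPKM + 1 in either direction. The share of all genes tested, which were not matched for level, was 66.1%. Within a 1.5-fold change lay the intervals of 13 of the 35 members and of 3017 of the 11979 genes tested. The 5 members whose interval reached past the 2-fold bound were Lss, Abca1, Stard4, Acaca and Scd2. At low levels, as in Idi1, Elovl6 and Tm7sf2, an interval within the 2-fold bound can still hold a change of FPKM itself past 2-fold. Single log2 differences ran from -0.47 in Scd2 to 0.42 in Stard4.

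**Figure D1:**
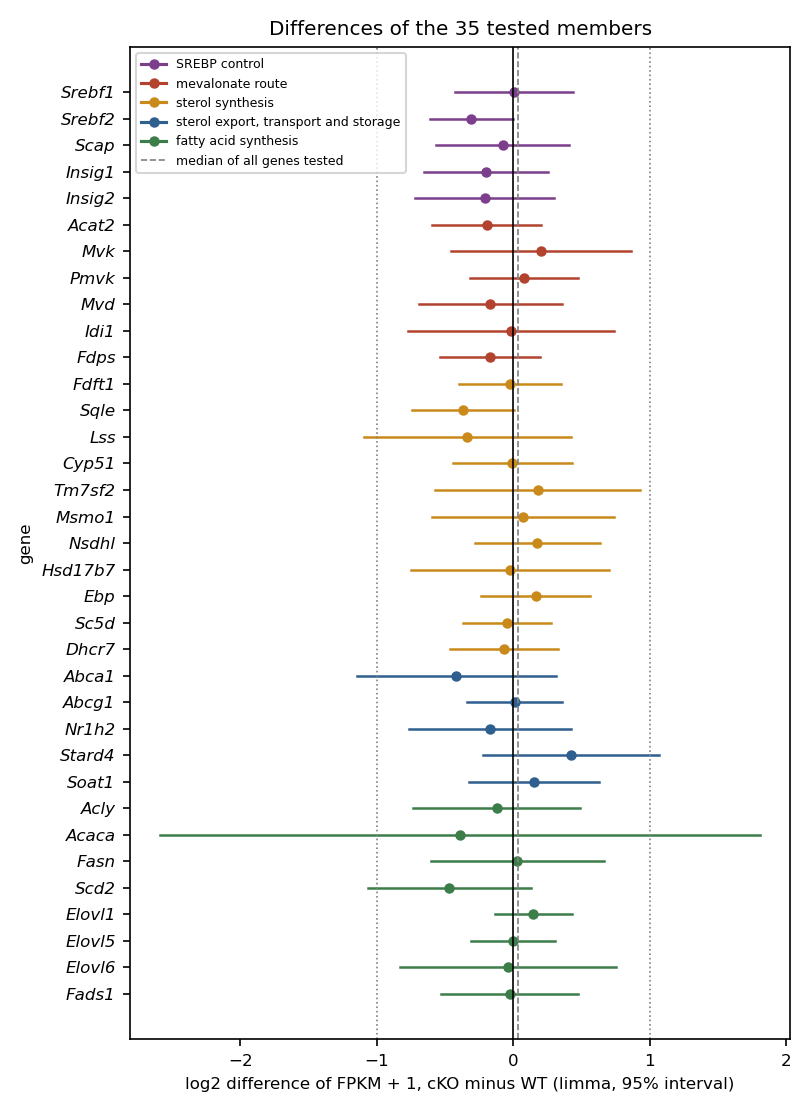
Log2 difference of FPKM + 1 (cKO minus WT, horizontal axis) of each of the 35 tested members, coloured by role, with its 95% interval from limma. Dotted lines mark a 2-fold change of FPKM + 1 and the dashed line the median of all genes tested (0.033). The intervals of 30 members stay inside the dotted lines, and that of Acaca is the widest.

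A few members had groups that did not overlap. The 3 cKO values were all below the 3 WT values in 4 of the 35 members, Srebf2, Insig1, Sqle and Abca1, against 3.75% of all genes tested. They were all above in 1 of the 35, Elovl1, against 6.96% of all genes. Groups of 3 that do not overlap have an exact two-sided permutation p of 0.1, the smallest that 3 against 3 can give. At an unadjusted p under 0.05, 1 member was lower, Srebf2, against 1.78% of all genes, and 0 were higher, against 3.59% of all genes. With equal sums Abca1 was the only member lower without overlap, where the share of all genes was 1.43%, and Elovl5 and Sc5d were the members higher without overlap, where it was 13.2%.

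Among the genes of SREBP control, Srebf2 (ENSMUSG00000022463), the factor that drives cholesterol synthesis, had the smallest p of all members. It measured 35.9, 35.5 and 30.6 FPKM in the cKO libraries against 41.9, 42.5 and 42.4 FPKM in the WT libraries. The WT libraries were nearly equal, and cKO 3 was the lowest of the 6. The means were 34.0 ± 2.94 against 42.3 ± 0.350 FPKM (SD, n = 3 each), 1.24-fold lower. This made a log2 difference of -0.31, standard error 0.127 and 95% interval -0.61 to -0.0055 (limma, unadjusted p = 0.0470, adjusted p = 0.921). The unadjusted p was above 0.05 with a pseudocount of 0.1, equal sums, the replicate number as a block, and without any 1 library.

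Insig1 (ENSMUSG00000045294), which retains the SREBP factors and is itself one of their targets, measured 5.77, 8.28 and 8.11 FPKM in the cKO libraries against 8.60, 8.33 and 8.69 FPKM in the WT libraries. The gap between the groups was small, with cKO 2 just under WT 2, and cKO 1 stood apart below. The fitted log2 difference came to -0.20, standard error 0.191 (limma, adjusted p = 0.933). At most 56 to 112 fragments lay behind each Insig1 value, taking the longest annotated transcript.

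Srebf1 (ENSMUSG00000020538), the factor of fatty acid synthesis, was the most abundant gene of this role and did not separate the groups. It measured 48.1, 74.1 and 64.5 FPKM in the cKO libraries against 57.9, 63.3 and 62.3 FPKM in the WT libraries. The cKO libraries held both the lowest and the highest value. In the fit it differed by 0.0047 (log2), 95% interval -0.42 to 0.43 (limma, adjusted p = 1.0). Scap, the escort protein, lay between 26.8 and 42.7 FPKM, and Insig2, the second retention protein, between 23.8 and 40.2 FPKM, both with groups that overlapped. The median log2 difference of the 5 genes was -0.20, with 4 of 5 below 0.

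The proximal promoters of the members with separate groups are shown to place the letters of the sterol element and the CCAAT box in them. RefSeq windows (GRCm38.p6, 250 bases before and 50 after a start) were held for 29 of the 36 members, in 38 windows. Sqle had no entry, and of the 2 windows of Elovl1 the first is shown. Below are the 250 bases before the start, on the gene's strand, of Srebf2 (chr15:82147019-82147268, plus strand), Insig1 (chr5:28071162-28071411, plus strand), Abca1 (chr4:53159896-53160145, minus strand) and Elovl1 (chr4:118427843-118428092, plus strand). Capitals mark the letters TCACNCCA or CCAAT, read on either strand.
Srebf2: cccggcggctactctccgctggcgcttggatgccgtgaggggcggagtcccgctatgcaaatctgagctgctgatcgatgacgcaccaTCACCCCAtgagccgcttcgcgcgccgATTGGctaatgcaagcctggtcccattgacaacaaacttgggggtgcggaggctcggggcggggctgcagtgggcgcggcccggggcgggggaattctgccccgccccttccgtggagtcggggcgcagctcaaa
Insig1: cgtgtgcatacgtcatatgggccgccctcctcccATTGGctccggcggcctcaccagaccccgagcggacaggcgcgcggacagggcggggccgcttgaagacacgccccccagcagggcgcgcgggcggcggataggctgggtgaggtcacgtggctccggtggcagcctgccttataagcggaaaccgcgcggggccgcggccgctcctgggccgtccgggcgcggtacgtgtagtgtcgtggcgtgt
Abca1: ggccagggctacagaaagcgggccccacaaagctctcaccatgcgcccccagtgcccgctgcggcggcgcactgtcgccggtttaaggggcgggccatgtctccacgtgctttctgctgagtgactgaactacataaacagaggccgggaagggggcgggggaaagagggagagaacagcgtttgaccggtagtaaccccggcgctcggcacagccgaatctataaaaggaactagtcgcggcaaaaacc
Elovl1: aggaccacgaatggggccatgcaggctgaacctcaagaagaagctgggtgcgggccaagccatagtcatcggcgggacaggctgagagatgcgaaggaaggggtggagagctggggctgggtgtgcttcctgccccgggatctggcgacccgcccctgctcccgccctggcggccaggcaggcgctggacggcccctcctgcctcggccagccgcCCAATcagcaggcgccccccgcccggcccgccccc

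The Srebf2 window held the sterol element letters TCACCCCA, starting 162 bases before the start, and a CCAAT box, the letters bound by NF-Y, a usual partner of the SREBP factors. Of these forms, the Insig1 window held a CCAAT box only, and the Abca1 window held neither. The Elovl1 window shown held a CCAAT box only, and its second window held neither. The full 9-letter form TCACNCCAC was in 0 of 38 member windows and in 1.24% of all 32851 windows. Its first 8 letters, TCACNCCA, a form chosen after the windows were seen and contained in the longer one, were in 2 of 38 member windows (5.26%), those of Srebf2 and Msmo1, and in 4.36% of all windows. CCAAT was in 23 of 38 member windows (60.5%) and in 37.4% of all windows. TGANTCA, the core shared by AP-1 and the Bach factors, was in 2 of 38 member windows (5.26%), those of Dhcr7 and Msmo1, and in 7.81% of all windows. Both strands were searched, and a match describes letters and not a bound site. Other letters that the SREBP factors may bind were not searched, so a window without these forms is not shown to lack their sites.

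**Figure D2:**
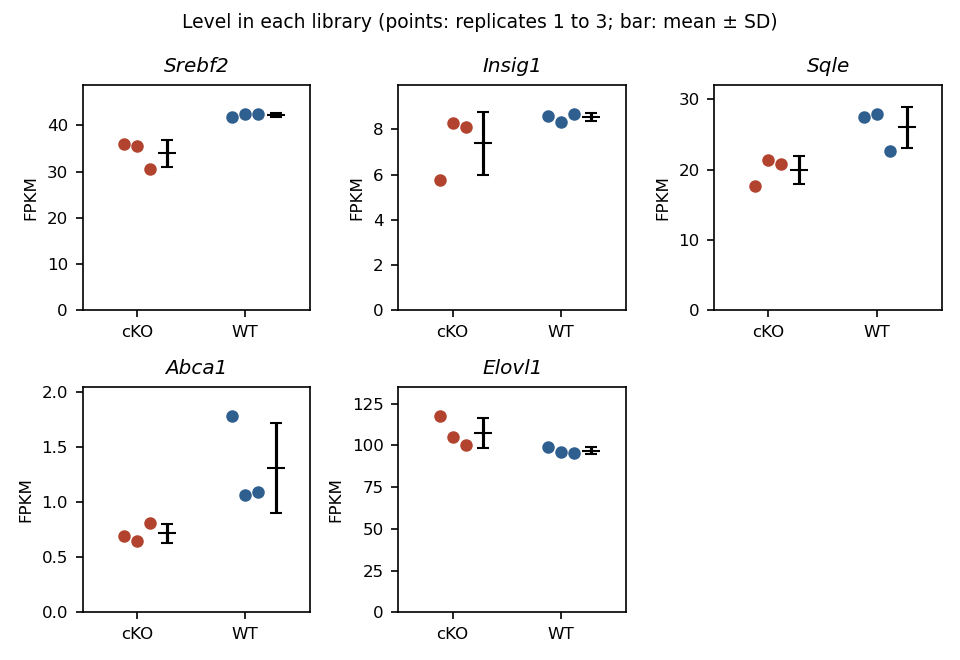
FPKM (vertical axis, from 0) in the 3 cKO and 3 WT libraries for the 5 members whose groups do not overlap, with mean ± SD beside the points. Srebf2, Insig1, Sqle and Abca1 are lower and Elovl1 is higher in the libraries labelled cKO. None has an adjusted p under 0.05.

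Genes of the mevalonate route, which turns acetyl-CoA into the isoprenoid units of sterols and lipid anchors, overlapped between the groups in all 6 cases. So did most genes tested, of which 3.75% were lower and 6.96% higher without overlap. Fdps (ENSMUSG00000059743), which joins the units to farnesyl diphosphate, was the most abundant, with 42.7, 53.5 and 44.1 FPKM in the cKO libraries against 59.4, 51.0 and 47.7 FPKM in the WT libraries. Its highest value was in WT 1 and its lowest in cKO 1. On the log2 scale it differed by -0.17, 95% interval -0.53 to 0.19 (limma, adjusted p = 0.930). Exons of a predicted gene on the same strand cover 26.7% of the annotated exonic bases of Fdps. Its values may thus hold reads of that gene, to an extent that is not known. Such overlap was at least 5% in 4 other members, at 18.3% in Fdft1, 13.2% in Scap and 9.22% in Idi1 with genes on the other strand, and at 12.1% in Tm7sf2 with Vps51 on the same strand. The strand setting of the counting is not given.

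The other members of the route lay lower. Acat2, which joins 2 acetyl-CoA at the entry, stood at 9.96 ± 1.45 against 11.5 ± 0.578 FPKM (SD, n = 3 each). Mvd, the decarboxylase, lay between 13.9 and 23.3 FPKM, with its lowest value in cKO 3. Mvk, mevalonate kinase, ranged from 12.9 FPKM in WT 1 to 26.7 FPKM in cKO 1, and Pmvk, the next kinase, from 15.7 to 21.5 FPKM. Idi1, the isomerase that makes the unit's reactive form, was low, with 0.866, 2.35 and 1.75 FPKM in the cKO libraries against 1.48 to 1.69 FPKM in WT. The median log2 difference of the 6 genes was -0.092, with 4 of 6 below 0.

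In sterol synthesis, only Sqle of 11 genes had groups that did not overlap. Of all genes tested, 3.75% were lower and 6.96% higher without overlap. Sqle (ENSMUSG00000022351), the squalene epoxidase, a rate-controlling step, measured 17.6, 21.4 and 20.7 FPKM in the cKO libraries against 27.5, 27.9 and 22.7 FPKM in the WT libraries. WT 3 lay closest to the cKO libraries, and cKO 1 was the lowest. The means were 19.9 ± 2.01 against 26.0 ± 2.92 FPKM (SD, n = 3 each), 1.31-fold lower. This made a log2 difference of -0.37, standard error 0.155 and 95% interval -0.74 to 0.0018 (limma, unadjusted p = 0.0509, adjusted p = 0.925). The unadjusted p of Sqle was under 0.05 without a filter, with a minimum mean of 5 FPKM and after quantile normalization or trimmed-mean scaling. It was also under 0.05 with library quality weights and without WT replicate 3, and above 0.05 in the other alternatives.

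The groups overlapped in the genes on either side of this step. Fdft1, which makes squalene, lay between 14.6 and 18.5 FPKM with means of 16.7 ± 1.88 against 16.9 ± 1.54 FPKM (SD, n = 3 each). Lss, which closes squalene epoxide to lanosterol, measured 16.0, 8.29 and 7.28 FPKM in the cKO libraries against 11.1, 11.4 and 16.6 FPKM in the WT libraries, so that cKO 1 was near the top of the WT range and the other two cKO libraries were below it. Cyp51, the first demethylase of lanosterol, measured 61.8, 46.0 and 41.2 FPKM in the cKO libraries against 49.8, 53.4 and 44.6 FPKM in the WT libraries, with cKO 1 the highest of the 6.

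The later sterol enzymes overlapped as well. Ebp (ENSMUSG00000031168), a sterol isomerase, was the most abundant of them, with 107, 138 and 131 FPKM in the cKO libraries against 116, 94.2 and 126 FPKM in the WT libraries. The fitted log2 difference came to 0.16, 95% interval -0.23 to 0.56 (limma, adjusted p = 0.933). Dhcr7, the last reductase before cholesterol, lay between 47.2 and 63.3 FPKM. Sc5d, a desaturase, varied little, between 35.4 and 42.5 FPKM, and Msmo1, a methyl oxidase, more, between 27.8 and 50.9 FPKM. The methyl-removing enzymes Nsdhl and Hsd17b7 ranged from 13.1 to 19.6 and from 3.28 to 7.58 FPKM, and the reductase Tm7sf2 from 2.0 to 5.17 FPKM. The median log2 difference of the 11 genes was -0.024. Their summed level was 372 to 395 FPKM in the libraries labelled cKO and 367 to 389 FPKM in those labelled WT.

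Of the 5 genes of export, transport and storage, only Abca1 had groups that did not overlap, against 3.75% lower and 6.96% higher over all genes. Abca1 is a target of the LXR receptors, and it did not pass the test. Abca1 (ENSMUSG00000015243), which moves cholesterol to lipid-poor apolipoprotein, measured 0.688, 0.645 and 0.812 FPKM in the cKO libraries against 1.78, 1.06 and 1.09 FPKM in the WT libraries. WT 1 was well above the other libraries. The means were 0.715 ± 0.087 against 1.31 ± 0.405 FPKM (SD, n = 3 each), 1.83-fold lower. The log2 difference, which understates a change at this level, was -0.42 with a standard error of 0.306 (limma, adjusted p = 0.925). At most 25 to 83 fragments lay behind each Abca1 value. Without WT replicate 1, or without WT replicate 3, the mean of Abca1 was under the limit of 1 FPKM and the gene was not tested.

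Abcg1 (ENSMUSG00000024030), which exports cholesterol to lipoprotein particles and is also an LXR target, measured 78.8, 61.3 and 64.4 FPKM in the cKO libraries against 73.3, 64.9 and 64.1 FPKM in the WT libraries. The 2 groups covered almost the same range. In the fit it differed by 0.0094 (log2), 95% interval -0.34 to 0.36 (limma, adjusted p = 0.999). That Abca1 and Abcg1 differ in their response was not tested. Nr1h2, which encodes LXR-beta, lay between 44.1 and 83.7 FPKM, with both ends in WT. Soat1, which stores cholesterol as esters, ranged from 8.61 to 12.9 FPKM. Stard4, a carrier of cholesterol between membranes and an SREBP target, measured 9.04, 12.8 and 16.6 FPKM in the cKO libraries against 7.31, 8.52 and 11.7 FPKM in the WT libraries. It was the member with the highest log2 difference, 0.42 with a 95% interval from -0.22 to 1.07 (limma, adjusted p = 0.925), opposite in sign to Srebf2 and Sqle.

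In fatty acid synthesis the groups overlapped in all members but Elovl1, which was higher, as were 6.96% of all genes tested without overlap. Acly (ENSMUSG00000020917), which makes the cytosolic acetyl-CoA for both pathways, had the highest mean of all members, with 134, 90.4 and 130 FPKM in the cKO libraries against 145, 154 and 90.5 FPKM in the WT libraries. Each group held 1 library near 90.4 FPKM. On the log2 scale it differed by -0.12, 95% interval -0.73 to 0.49 (limma, adjusted p = 0.977). Fasn, the fatty acid synthase, was highest in cKO 1 at 30.6 FPKM and lay between 16.0 and 23.7 FPKM in the other libraries.

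Scd2, a desaturase that makes monounsaturated fatty acids, had the lowest log2 difference of the members. It measured 14.8, 7.96 and 12.7 FPKM in the cKO libraries against 17.2, 18.2 and 13.8 FPKM in the WT libraries. The groups overlapped through cKO 1 and WT 3. The difference was -0.47 with a 95% interval from -1.07 to 0.13 (limma, adjusted p = 0.925).

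The elongases differed in level more than between groups. Elovl1 (ENSMUSG00000006390), which extends very long saturated chains, measured 117, 105 and 100.2 FPKM in the cKO libraries against 99.1, 96.2 and 95.3 FPKM in the WT libraries. The groups lay close, with cKO 3 just above WT 1. This made a log2 difference of 0.15, 95% interval -0.13 to 0.43 (limma, adjusted p = 0.925), and the groups overlapped after quantile normalization, trimmed-mean scaling and equal sums. Exons of Cdc20, a mitotic gene on the other strand, cover 1.94% of the exonic bases of Elovl1. Elovl5, of polyunsaturated chains, had the narrowest range of the members relative to its level, from 32.3 to 37.5 FPKM. Elovl6, of shorter saturated chains, was low at 0.833 to 2.12 FPKM, the desaturase Fads1 lay between 4.41 and 6.07 FPKM, and Fads2 was listed at 0 in 4 of the 6 libraries and at up to 0.698 FPKM, under the limit for testing.

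**Figure D3:**
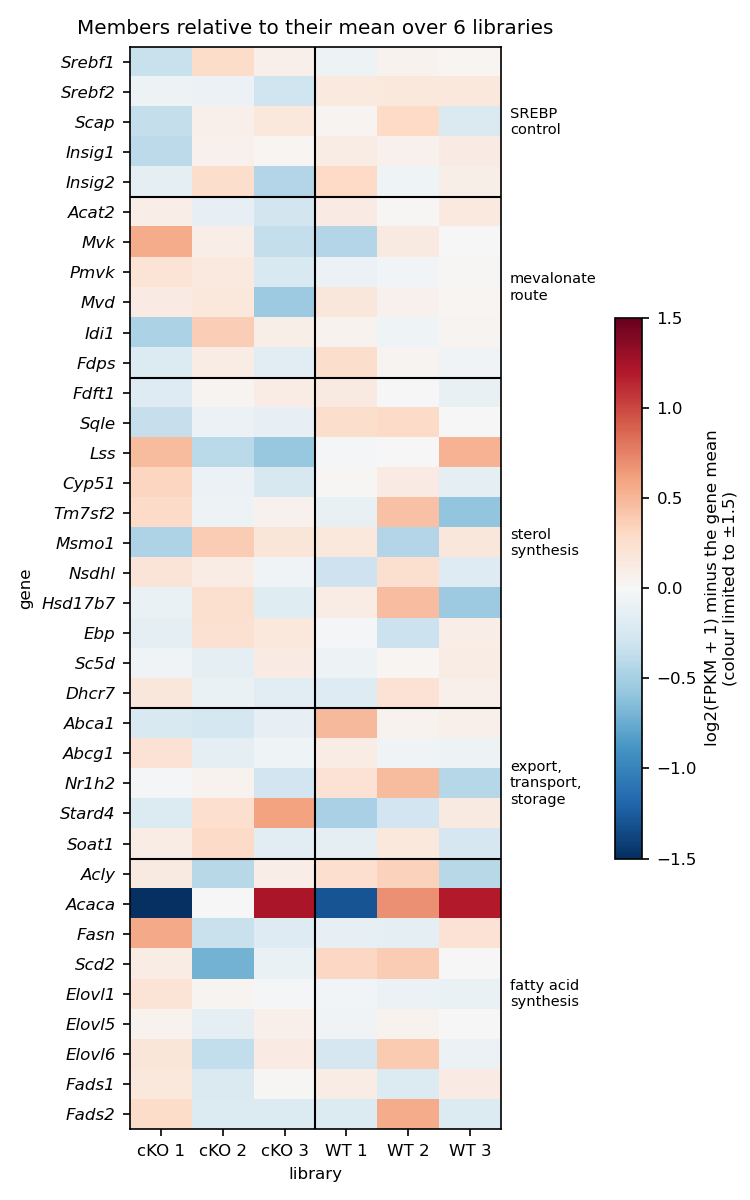
Log2(FPKM + 1) of each of the 36 members (rows, by role) in each library (columns) minus the gene's mean over the 6 libraries; red is above and blue below the mean, and the vertical line parts cKO from WT. Acaca is lowest in cKO 1 and WT 1 and highest in cKO 3 and WT 3, and no role is uniformly of 1 colour on either side of the line.

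Acaca varied most between libraries. In 25 of the 35 tested members the highest of the 6 values was under 2 times the lowest, and in the other 10 it was 2.07 to 2.75 times the lowest but for Acaca. The median SD within groups was 0.23 (log2) over the members and 0.30 over all genes tested. Acaca (ENSMUSG00000020532), the acetyl-CoA carboxylase that makes malonyl-CoA for fatty acid synthesis, ranged 21.7-fold. It measured 0.527, 4.29 and 11.4 FPKM in the cKO libraries against 1.17, 7.55 and 11.2 FPKM in the WT libraries. Both low values came from libraries numbered 1 and both high values from libraries numbered 3, while the group means were close. The fitted log2 difference came to -0.39, 95% interval -2.59 to 1.81 (limma, adjusted p = 0.977), and the SD within groups of 1.42 was at least as large as in 96.1% of the genes tested. At most 18 fragments lay behind the lowest Acaca value and 429 behind the highest.

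**Figure D4:**
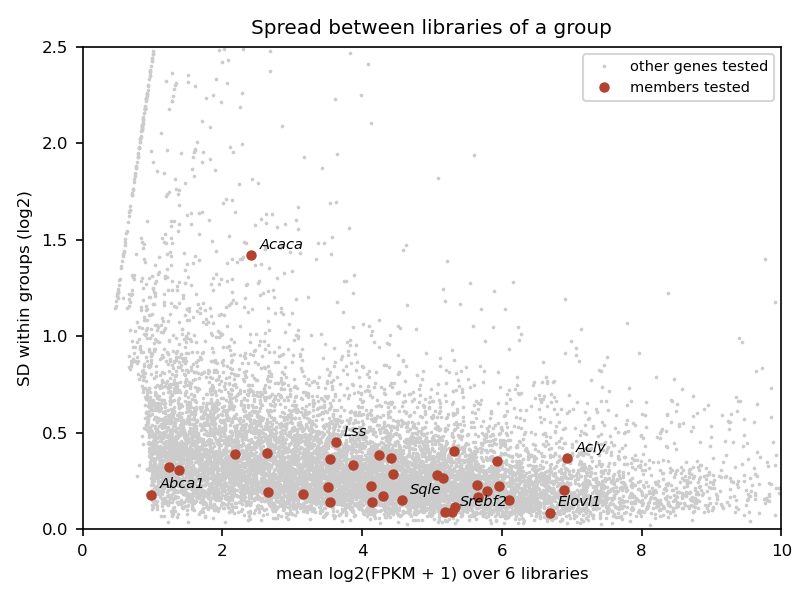
SD within groups of log2(FPKM + 1) (vertical axis) against mean level (horizontal axis) for all genes tested (grey) and the members (red); 364 genes lie outside the axes. Acaca stands far above the other members, at 1.42, and Srebf2 and Elovl1 are among the steadiest.

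No library held the highest or the lowest value in most of the members. WT 2 held the highest of the 6 values in 11 of the 35 tested members and the lowest in 1. The libraries labelled cKO held the lowest value in 9, 9 and 7 members and the highest in 7, 5 and 4. The median deviation of the members from their means over the 6 libraries lay between -0.068 in cKO 3 and 0.057 in WT 2 (log2).

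Genes of the wider pathway did not pass the test either. Of 42 further genes described here, of sterol sensing, uptake, fatty acid activation and oxidation, 41 were read and 34 tested. The smallest adjusted p was 0.925 (limma), 17 were above 0 and 17 below, and the median log2 difference was 0.017. At an unadjusted p under 0.05, 0 were lower and 0 were higher.

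The genes with the smallest p were Hacd3, Acsl3, Acsl4, Erlin2, Fabp5 and Lpin1. Hacd3, a dehydratase of chain elongation, was above in all 3 cKO libraries, at 75.0 ± 6.20 against 61.5 ± 1.14 FPKM (SD, n = 3 each) with a difference of 0.28. Acsl3 and Acsl4, which activate fatty acids, differed in sign, at 4.18 ± 1.61 against 7.05 ± 2.35 FPKM with a difference of -0.65 and at 20.4 ± 3.66 against 12.7 ± 8.61 FPKM with a difference of 0.81, and overlapped in both. Erlin2, a scaffold of sterol-dependent degradation in the endoplasmic reticulum, averaged 5.81 ± 0.578 against 4.21 ± 1.18 FPKM, which is 0.41 higher on the log2 scale with no overlap, and Fabp5, a fatty acid carrier, averaged 34.1 ± 3.65 against 27.2 ± 7.66 FPKM, a difference of 0.35 with overlap.

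Lpin1, a phosphatidate phosphatase, was the remaining gene whose groups did not overlap, at 5.05 ± 0.305 against 6.22 ± 0.157 FPKM (SD, n = 3 each) and a difference of -0.26. In all, 1 of the 34 (2.94%) was lower and 2 (5.88%) were higher without overlap, against 3.75% and 6.96% of all genes tested.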

How the data were processed

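Libraries were made with SmartSeq2 from sorted splenic Treg, per the labels' protocols. The authors deposited FPKM values for 36811 genes, made with cuffnorm per the file name. FastQC, cutadapt and HISAT2, with the builds NCBIM37 and mm9 and no versions, are named in the submitters' processing notes. No annotation, strand setting or filter is named there. FPKM can split reads wrongly between overlapping genes and isoforms. The members and lists were chosen with earlier results of these data known.

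Symbols came from the reference tables (31840 of 36811 identifiers matched), and a few listed pathway genes are not reported here. After dropping rows whose mean lay under 1 FPKM, log2(FPKM + 1) values were fitted in limma 3.58.1 (R 4.3.3) with the trend option and without the replicate number, with Benjamini-Hochberg adjustment over all 11979 genes. Such log2 differences understate the change of low genes, and a fold in FPKM is a ratio of group means. The fit was tested on simulated data with larger changes than the members' fitted differences. That test does not show whether differences of the members' size would be found. Depth was estimated by taking the modal low value of single-transcript genes of at least 2000 bases (GENCODE M21) as 1 fragment. Of low values, those at the mode included, 58.3% to 70.1% lay within 0.1 of a whole number of fragments. No count test was run for this reason. Fragments per value use the longest transcript and are upper estimates of an approximate scale.

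Members given in full were those with an unadjusted p under 0.05 or groups that did not overlap, the most abundant of each role, and Srebf1 and Srebf2. Lss, Cyp51, Scd2, Stard4 and Acaca were added after their values were seen. Other pathway genes were named by the 6 smallest p. The alternatives changed the pseudocount (0.1, 5), the filter (none, mean of 5 FPKM), the scaling (quantile, equal sums, trimmed mean) or the library weights, added the replicate number as a block, or omitted 1 library. Exon overlaps were read from GENCODE M21 on GRCm38, which is not the build of the files, so the promoter windows alone have coordinates. Python 3.11.15, numpy 2.4.6, pandas 2.3.3 and matplotlib 3.10.9 were used for tables and figures.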

Additional observations from a re-analysis of the deposited data

How the results depend on the processing

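No member passed in any of the 15 alternatives, where the smallest adjusted p of a member was 0.338, with library quality weights (limma). With these weights Insig2, Sqle and Srebf2 were lower at an unadjusted p under 0.05, as were 443 of 11979 genes. Stard4 was higher, as were 909 genes. Without cKO replicate 1, Lss and Scd2 were lower at that limit, as were 292 of 11957 genes. Of 35 members, 14 kept the sign of their difference throughout, 9 below 0, among them Srebf2 (from -0.38 to -0.15), Sqle (from -0.46 to -0.22), Insig1 (from -0.28 to -0.053) and Abca1 in the 12 alternatives that tested it (from -0.76 to -0.14), and 5 above. The members' median log2 difference was 0.10 with equal sums and lay between -0.061 and -0.017 without 1 library. The 1 member higher without overlap became 0 after quantile normalization and 0 with trimmed-mean scaling, and 2 with equal sums, where the 4 lower became 1. Over all genes the 834 higher became 625, 668 and 1581 under these scalings, and the 449 lower became 627, 620 and 172. Over all genes the count of 3 became 1 under the replicate block and lay between 5 and 15 when any 1 library was left out. With the block 0 members passed and 0 had an unadjusted p under 0.05. Across genes, same-numbered libraries did not deviate together (r of -0.060, -0.18 and -0.017). In Acaca both low values came from libraries numbered 1 and both high values from libraries numbered 3. Whether the numbers pair the libraries was not tested. The sign changed in at least 1 alternative in 21 of the 35 members, none of which passed. Of those whose difference is given above, the values were -0.071 (quantile) and -0.034 (trimmed mean) for Srebf1, -0.067 (quantile), -0.029 (trimmed mean) and -0.064 (quality weights) for Abcg1, 0.036 (equal sums) for Acly and 0.88 (quality weights) for Acaca. Without 1 library Srebf1 ranged from -0.13 to 0.18, Abcg1 from -0.098 to 0.080, Acly from -0.36 to 0.060 and Acaca from -1.13 to 0.41. The cause was not tested. The depth limits Fads2, Idi1, Elovl6, Tm7sf2 and Abca1 most, with at most 7, 36, 38, 51 and 83 fragments behind their highest values.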
